A study of Mus musculus with 34 samples.

Results

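The neuroblastoma lineage transcription factors followed here are 8 genes taken by symbol from an expression table of 52661 genes: Mycn, Myc, Phox2a, Hand2, Gata2, Gata3, Isl1 and Rest. They were measured by polyA+ RNA-seq in N2A (Neuro-2A) cells, a mouse neuroblastoma line, after 24 h in 0.4% DMSO, in a screen for small molecules that change the splicing of neuronal microexons, which are very short exons. Of the 34 libraries, 3 received DMSO alone (A, B and C), 2 each (A and B) received the histone deacetylase (HDAC) inhibitors Vorinostat, CI-994, BRD4884 and BRD6688, and 1 each received the other 23 compounds. The study classes 17 compounds as microexon activators, among them the HDAC inhibitors and most of the kinase inhibitors, and 10 as microexon inhibitors. The study lists doses of 2.5 µM for Vorinostat (2 µM in another place), 5 µM for CI-994, 10 µM for BRD4884 and BRD6688, 1 µM for Trametinib, 2 µM for Crenolanib and SCH-772984, 500 nM for GNF-5837 and 6.7 µM for T5985871. All groups share this 1 line, and nothing in the labels says that the libraries came from separate cultures, so p-values measure the spread between these libraries.

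2 kinds of value were read for each factor. The first is RPKM, reads per kilobase of transcript and 1000000 reads, of which the table gives 1 merged value per condition and therefore no spread. The second is the number of reads across a gene's exon-exon junctions per 1000000 junction reads of the library (junction RPM), which is available in every library, on 17702718 to 40613524 junction reads in all.

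Neuroblastoma arises from the sympathoadrenal branch of the neural crest. In noradrenergic tumour cells a small group of factors, among them PHOX2A, HAND2, GATA2, GATA3 and ISL1, bind one another's genes and the genes of catecholamine synthesis, and MYCN is the best known amplified oncogene of the disease. MYC, its paralogue, binds the same E-box sequence with the partner MAX. REST is a zinc-finger repressor that keeps neuronal genes silent, and in neurons a microexon inserted before its last exon gives a truncated protein, REST4.

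Sequences of Mycn, Myc and Rest are given first. The 250 bases before the start site of Mycn in RefSeq (GRCm38.p6, chr12:12941837-12942086, minus strand) are shown because Mycn had the largest changes of the 8, and capitals mark both matches to the E2F motif TTTGGCGC, 183 and 168 bases before that start.
Mycn promoter: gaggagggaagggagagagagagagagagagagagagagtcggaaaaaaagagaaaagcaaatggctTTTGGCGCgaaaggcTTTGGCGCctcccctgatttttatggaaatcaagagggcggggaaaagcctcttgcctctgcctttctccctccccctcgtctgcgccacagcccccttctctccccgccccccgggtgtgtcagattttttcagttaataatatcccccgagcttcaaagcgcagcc

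The E2F motif, searched on both strands in 300 bases from 250 before to 50 after a start, was present in 169 of 32851 mouse promoters (0.514%), and 2 of them (0.00609%) held it more than once. The E-box CACGTG, searched in the same way, was present in 7.15% of promoters. Neither motif was found in the RefSeq promoters of Phox2a, Hand2, Gata2, Gata3 or Isl1, and the Mycn promoter held no CACGTG. Whether these motifs have a part in the changes described below was not tested. The GENCODE annotation places the 5′ end of Mycn inside the window shown.

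Myc and Rest are each shown at 1 splice junction whose reads are reported below (GENCODE vM21 transcripts, GRCm38). For Myc, capitals mark the 3 bases that depend on which of 2 neighbouring acceptor sites is used for the second exon. For Rest, capitals mark the last exon, joined to an 84-nt exon across an intron of 5385 nt (chr5:77275318-77280702, plus strand).
Myc, upstream acceptor: ttggaaaccccgCAGacagccacgacgatg
Myc, downstream acceptor: ttggaaaccccgacagccacgacgatg
Rest, last junction: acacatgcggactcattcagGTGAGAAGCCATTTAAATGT

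Of the 8 factors, 7 exceeded 5 RPKM in DMSO, the limit used here for expression, as did 9397 genes in all. Hand2, a basic helix-loop-helix factor of sympathetic neurons, was the highest at 247.51 RPKM, above 99.1% of the genes in the table. It was followed by Myc at 95.63 RPKM, Phox2a at 78.92, Gata2 at 47.92, Isl1 at 15.5, Mycn at 10.86 and Gata3 at 7.34. Rest lay just under the limit at 4.74 RPKM, and exceeded it in 15 of 28 conditions. Both MYC genes were thus expressed, with Myc the higher per length.

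Junction RPM per intron gave nearly the same order in the 3 DMSO libraries. They ranged from 76.6 to 98.3 for Hand2, 67.5 to 70.5 for Myc, 20.1 to 22.9 for Gata2, 8 to 12.7 for Phox2a and 4.48 to 4.7 for Isl1, with no overlap between neighbours. Mycn (2.82 to 4.24) and Gata3 (3.63 to 3.93) overlapped, so their order is not resolved, and Rest was lowest at 0.566 to 0.681. Gata2 and Phox2a stood in the opposite order in RPKM.

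The cells matched their label in part. In DMSO, 6 of 8 neuronal markers and 4 of 6 noradrenergic markers exceeded 5 RPKM, including Slc18a2 (33.35) and Dbh (11.41), whereas Th, the rate-limiting enzyme of catecholamine synthesis, was at 1.57 RPKM, Slc6a2 at 0.01 and the neurofilament genes Nefl and Nefm at 0.01 each. None of 6 glial and none of 5 blood markers exceeded 5 RPKM in DMSO, but 2 of 8 mesenchymal markers did, Vim (750.38) and Fn1 (49). With compounds Fn1 reached up to 638.11 RPKM, Col1a1 11.67 and Hba-a1 27.54, and their part in the results was not tested. In bulk RNA, fewer cells of a type and less RNA per cell cannot be told apart. Replicate libraries differed by more than counting error in all groups, with chi-square per degree of freedom between 6.09 and 8.65 for every pair but Vorinostat A and B, which stood apart at 39.4.

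Each compound was compared with DMSO gene by gene, and a gene was called when its RPKM, with 0.5 added, differed at least 2-fold and exceeded 5 in either condition. This gave 23 calls among 204 pairs of factor and compound (11.3%), 17 higher and 6 lower, against 6.53% of the pairs over all genes, of which 7032 were higher and 10143 lower. All 23 had the same sign in junction reads, with the compound outside the range of the DMSO libraries, and 20 were also past 2-fold there. In junction reads alone, 45 of 216 pairs were past 2-fold, 38 higher and 7 lower. The shares of all genes past 2-fold or outside the DMSO range in junction reads were not computed. The junction-read counts are therefore not a result about these factors. The calls fell on 13 compounds, and none of the 8 factors was called with the other 14. Most compounds have 1 library, so these differences have no replicate check.

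**Figure D1:**
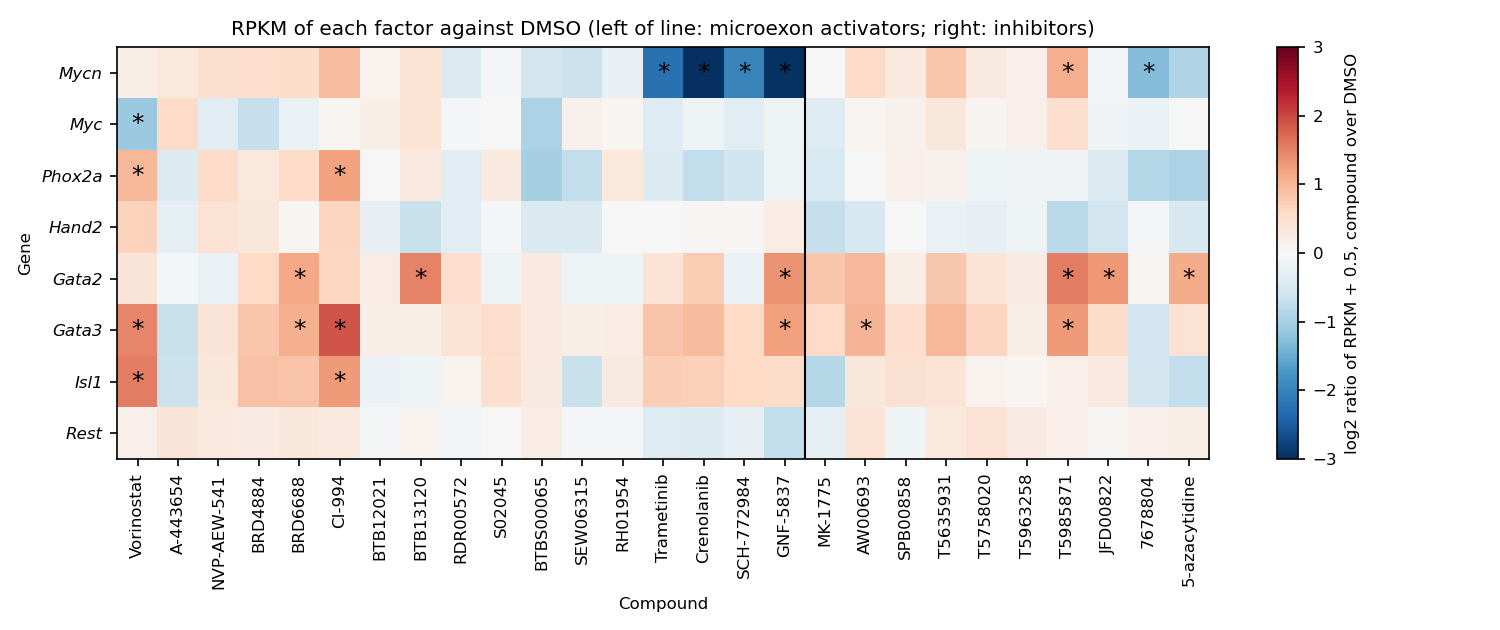
Colour gives the log2 ratio of RPKM + 0.5 in each of 27 compounds (columns) over DMSO for the 8 factors (rows), limited to 3 in either direction, and an asterisk marks a call. The 17 activators are left of the line and the 10 inhibitors right of it. The darkest blue cells are Mycn with Crenolanib and GNF-5837, and Hand2 and Rest carry no asterisk.

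Each compound's calls are read against the share of all genes over 5 RPKM that it changed. Among compounds with a factor called, that share was 36.3% for CI-994 and 32.8% for Vorinostat, where 3 and 4 factors were called, and 14.5% for T5985871, 11.9% for BRD6688 and 9.27% for GNF-5837, with 3, 2 and 3 factors called. It was 6.27% for BTB13120, 5.1% for AW00693, 4.29% for Crenolanib, 3.38% for Trametinib, 2.46% for 7678804, 1.9% for SCH-772984, 1.47% for 5-azacytidine and 1.45% for JFD00822, each with 1 factor called. Among compounds with none called it was 9.7% for BRD4884, 5.04% for MK-1775, 3.72% for NVP-AEW-541, 3.55% for BTBS00065, 3.31% for T5635931, 2.74% for T5758020 and 2.71% for SEW06315. It was 2.44% for A-443654, 1.85% for RDR00572, 1.76% for BTB12021, 1.49% for T5963258, 1.2% for S02045, 0.807% for RH01954 and 0.702% for SPB00858. The 3 of 8 factors called with CI-994 are near its background, so that count is not a result about these factors.

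The scale matters for these ratios, since the median log2 ratio of genes over 5 RPKM was below 0 with several compounds, at -0.44 for CI-994, -0.36 for Vorinostat, -0.30 for MK-1775 and -0.27 for BRD4884. Relative to that median, 33 pairs were called, 28 higher and 5 lower, and Hand2 was then called higher with 2 compounds and Isl1 with 4, while Myc was called with none. The share of all pairs called on this scale was not computed, so these counts are not a result about the factors.

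Mycn (chr12:12936093-12941914, minus strand) was the factor with the widest range, from 0.9 to 23.76 RPKM. It was lower with 4 kinase inhibitors: 0.9 RPKM with Crenolanib, an inhibitor of PDGF receptors and FLT3, 0.95 with GNF-5837, an inhibitor of TRK receptors, 1.91 with Trametinib, an inhibitor of MEK, and 2.34 with SCH-772984, an inhibitor of ERK. The log2 ratios were -3.02, -2.97, -2.24 and -2.0. In these 4 conditions Mycn lay under the 5 RPKM that it exceeded in 23 of 28 conditions.

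The junction reads of Mycn in the same libraries were few. There were 8 with Crenolanib, 21 with GNF-5837, 25 with Trametinib and 81 with SCH-772984, against 344, 289 and 113 in DMSO A, B and C. In junction RPM this is 0.3905 with Crenolanib (95% Poisson interval, which covers counting error only, 0.1686 to 0.7694), 1.059 with GNF-5837, 0.944 with Trametinib and 2.054 with SCH-772984, all below the DMSO range of 5.646 to 8.47. The spread of the DMSO libraries is wide for this gene, with DMSO C lowest.

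Mycn was also lower with the inhibitor 7678804, at 4.14 RPKM (log2 ratio -1.29, and -1.0 in junction reads), and was 5.59 RPKM with 5-azacytidine (-0.90, not called). It was higher with T5985871, at 23.76 RPKM (1.09, and 1.39 in junction reads). Over all 27 compounds its median was 11.75 RPKM, close to the 10.86 of DMSO.

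Myc (chr15:61985391-61990374, plus strand) varied far less, between 44.06 and 143.3 RPKM. With the 4 kinase inhibitors under which Mycn was low it was between 73.58 and 85.56 RPKM, with log2 ratios of -0.38 for Trametinib, -0.34 for SCH-772984, -0.16 for Crenolanib and -0.16 for GNF-5837. The 1 call was with Vorinostat, at 44.06 RPKM (-1.11), which becomes -0.75 relative to the median of all genes and is then not called. The highest value, 143.3 RPKM (0.58), was with the AKT inhibitor A-443654. Over the 28 conditions, which share the DMSO column and 1 cell line, the log2 levels of Mycn and Myc had a Pearson correlation of 0.27.

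**Figure D2:**
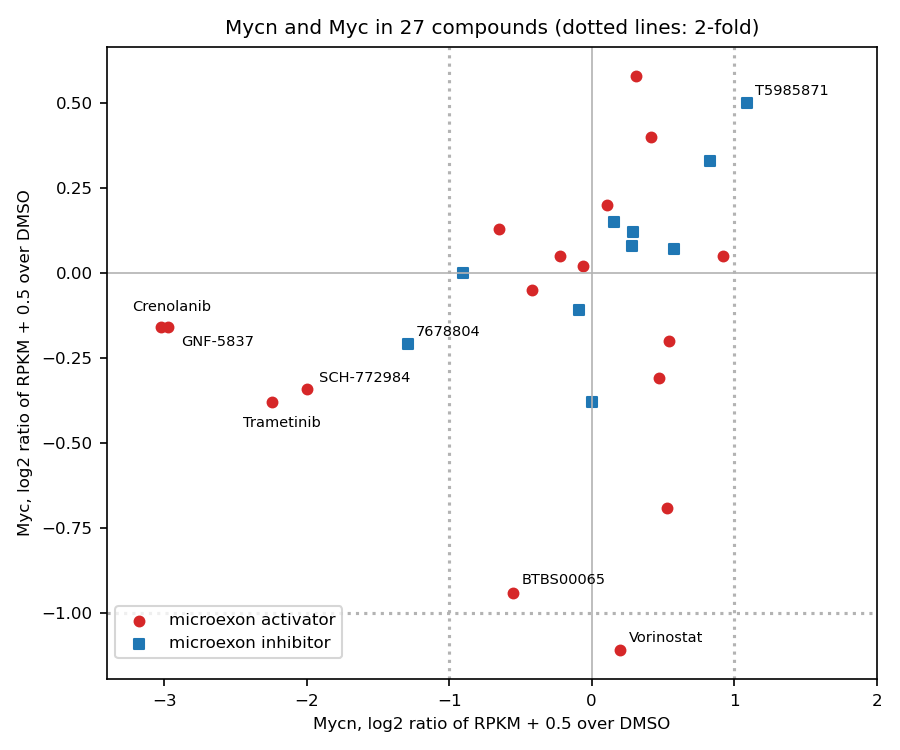
Each point is 1 of 27 compounds, with the log2 ratio of RPKM + 0.5 over DMSO of Mycn on the horizontal axis and of Myc on the vertical axis. Circles are activators and squares inhibitors, and dotted lines mark 2-fold. Crenolanib, GNF-5837, Trametinib and SCH-772984 lie between -3.02 and -2.0 for Mycn but between -0.38 and -0.16 for Myc, and Vorinostat is lowest for Myc at -1.11.

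Myc transcripts used the upstream acceptor of the second exon, with the 3 bases in capitals above, in 75.33% to 80.1% of junction reads over the 34 libraries. The mean was 77.19% in DMSO and 77.46% with the HDAC inhibitors, a difference of 0.27 percentage points that is smaller than the range within DMSO (76.76% to 77.81%; exact permutation test, two-sided, p = 0.77, n = 3 and 8).

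MAX and the MXD proteins pair with each other or with MYC proteins at E-boxes, MXD proteins acting as repressors there. Of 10 genes of this network in the table, 8 were called by RPKM with no compound, including Max at 66.52 RPKM in DMSO. Among these, Mxd1 (1.21 RPKM in DMSO) and Mycl (0.14) never exceeded 5 RPKM. In junction reads 8, 7, 3 and 6 of 9 network genes were called with Vorinostat, CI-994, BRD4884 and BRD6688. Over all genes 76%, 77.1%, 61.2% and 64% were. Mxd4, at 2.05 RPKM in DMSO, was higher with 9 compounds, most with GNF-5837 (21.31 RPKM, 3.10) and Crenolanib (11.43, 2.23), and including Trametinib (9.6, 1.99). At this level in DMSO, Mxd4 exceeded 5 RPKM only with compounds that raised it past 2-fold. The count of 9 is therefore fixed by the filter and is not a result. Mxd3, which is tied to proliferation, was lower with 6 compounds from its 14.41 RPKM, most with CI-994 (2.25, -2.44).

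Of 15 genes taken as MYC targets, 14 exceeded 5 RPKM, and 12 of them were lower with Vorinostat and 12 with CI-994, 7 with BRD4884, 5 with BRD6688 and 5 with GNF-5837. Over all genes the share called lower was 22.5%, 26.1%, 4.42%, 6.75% and 5.7%. The list's median log2 ratio was -1.84 with Vorinostat (-0.36 over all genes), -1.50 with CI-994 (-0.44) and -0.93 with GNF-5837 (-0.19). None of them was called with Trametinib, Crenolanib or SCH-772984, where the medians were -0.52, -0.75 and -0.36. Srm, spermidine synthase, had 292.89 RPKM in DMSO and 37.85 with Vorinostat (-2.94), and Cdk4, a cell cycle kinase, 460.15 and 88.24 (-2.38). Myc itself was near its DMSO level with CI-994 (99.08 RPKM), where 12 of these 14 genes were lower, and Mycn was at 21.01 RPKM (0.92, not called). Whether the level of either gene has a part in these changes was not tested.

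Phox2a (chr7:101818313-101822726, plus strand), a homeodomain factor that activates Dbh, ranged from 39.33 RPKM with BTBS00065 to 182.52 with CI-994. The calls were CI-994 (1.20) and Vorinostat at the limit itself (158.77 RPKM, 1.0), while BTBS00065 lay just outside it (-1.0). In junction reads Phox2a was past 2-fold higher with 8 compounds and lower with 2. Among these the sign was opposite to RPKM for RDR00572 (1.08, against -0.32 by RPKM), GNF-5837 (1.07, against -0.15) and T5985871 (1.04, against -0.10). It was 1.94 against 0.30 for BTB13120 and 1.27 against 0.02 for BTB12021. Retention of intron 2, described below, was 38.6% in DMSO and 19.9%, 27.8% and 7.51% with RDR00572, GNF-5837 and T5985871. With BTB13120 it was 33.5% and with BTB12021 19.4%, and the reads were not balanced with GNF-5837 and T5985871. Junction reads count spliced transcripts only, so they are not a measure of the Phox2a level alone. The part of splicing in these differences was not tested. Hand2 (chr8:57320983-57324633, plus strand) was called with no compound, and ranged from 139.85 RPKM with T5985871 (-0.82) to 397.07 with Vorinostat (0.68). Isl1 (chr13:116298281-116309689, minus strand), a LIM homeodomain factor of sympathetic and motor neurons, was called with Vorinostat (46.18 RPKM, 1.54) and CI-994 (38.05, 1.27). Its lowest value was 8.33 RPKM with the WEE1 inhibitor MK-1775 (-0.86).

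Of the 15 genes in a list of noradrenergic factors, 9 exceeded 5 RPKM with Vorinostat or CI-994, and 3 and 2 of these 9 were called lower, near the 22.5% and 26.1% of all genes called lower. None was called higher with any compound. The T-box factor Tbx2 (12.28 RPKM in DMSO) and the zinc-finger factor Insm1 (39.05) were each lower with 3 compounds. Hand1, the closest relative of Hand2, was at 0.51 RPKM in DMSO.

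Of 12 genes for enzymes, transporters, granins and receptors of catecholamine neurons, 8 of 10 over 5 RPKM were called higher with CI-994, 6 of 9 with Vorinostat, 3 of 9 with BRD4884 and 2 of 7 with BRD6688, against 10.2%, 10.4%, 5.29% and 5.14% of all genes. Those under 5 RPKM in DMSO entered these counts only where a compound raised them over it, as in the shares over all genes. The list's median log2 ratios were 1.48, 1.04, 0.76 and 0.83, and those of all genes -0.44, -0.36, -0.27 and -0.19. Dbh, which makes noradrenaline, had 47.57 RPKM with CI-994 (2.01) but 3.98 with Vorinostat (-1.41), from 11.41 in DMSO. Slc18a2, the vesicular monoamine transporter, reached 115.32 RPKM with CI-994 (1.77) and 68.49 with Vorinostat (1.03), from 33.35 in DMSO. Ddc was higher with 15 compounds, most with AW00693 (32.85 RPKM, 2.54). The receptor gene Ret was lower with 7 compounds, most with GNF-5837 (15.04 RPKM, -3.09) and Crenolanib (17.57, -2.87), from 131.73 in DMSO, and with Trametinib and SCH-772984 too.

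Among the 39 splicing events of the 8 factors that could be tested, intron 2 of Phox2a (739 nt, GRCm38 chr7:101820969-101821707, plus strand) was the only intron retained to a large degree. In DMSO 31.4%, 41% and 43.6% of transcripts at this junction kept it in libraries A, C and B, with a mean of 38.6%. GENCODE lists a Phox2a transcript of 614 nt that holds 391 bases of this intron. The retained share was between 19.4% with BTB12021 and 61.3% with NVP-AEW-541 among the 26 libraries with balanced reads at both ends of the intron.

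RDR00572 was also low at 19.9% and Trametinib high at 57.1%. T5985871 had 7.51%, but its reads at the ends of the intron were not balanced. With all libraries, 8 compounds lay below every DMSO library and 6 above. The 5 HDAC inhibitor libraries that passed averaged 41.95%, against 38.65% in DMSO (exact permutation test, two-sided, p = 0.464, n = 3 and 5, where the smallest possible p is 0.0179), and without DMSO A the difference of 3.30 percentage points became -0.34.

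**Figure D3:**
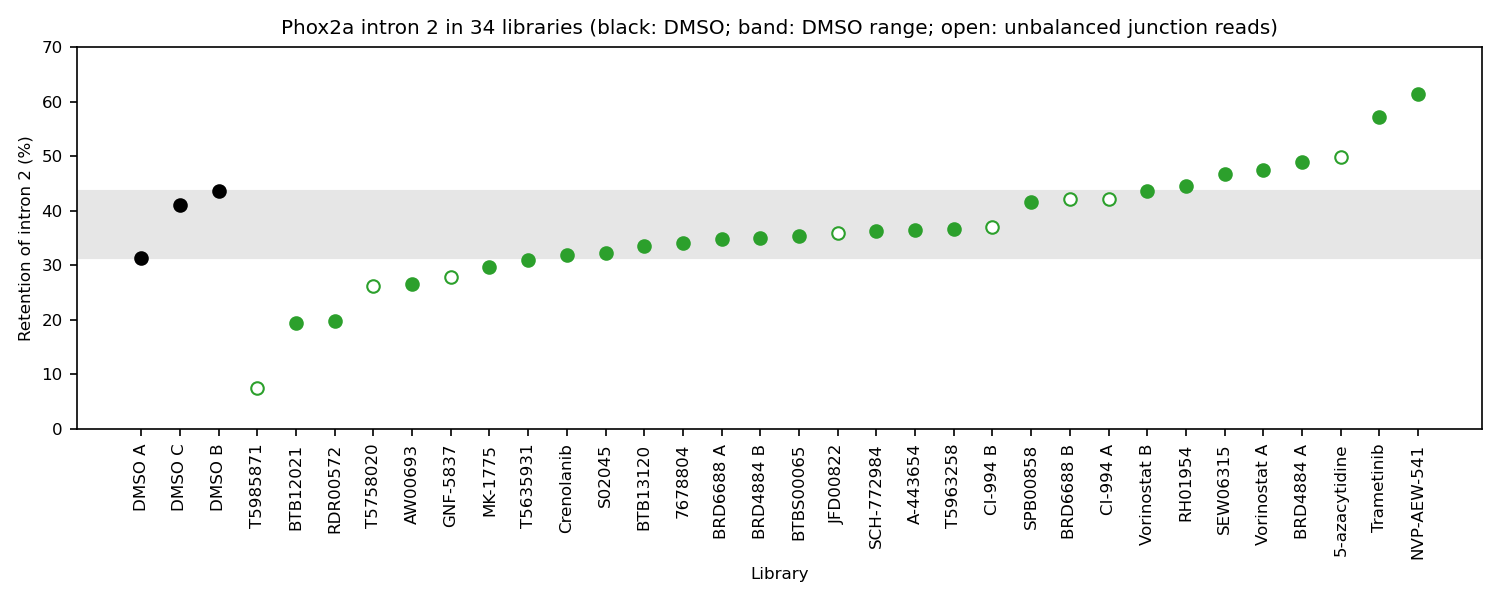
The vertical axis is the percentage of Phox2a transcripts that keep intron 2 in each of 34 libraries, with DMSO first (black) and the others in rising order (green). The band is the DMSO range, 31.4% to 43.6%, and open circles mark libraries whose reads at the ends of the intron were not balanced. The lowest balanced value is BTB12021 at 19.4% and the highest NVP-AEW-541 at 61.3%.

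Gata2 and Gata3 are zinc-finger factors that bind the same GATA sequence and are needed in sympathetic precursors. Gata2 (chr6:88193891-88207032, plus strand) was the factor called with a varied set of compounds: T5985871 (139.89 RPKM, 1.54), BTB13120 (135.8, 1.49), GNF-5837 (122.44, 1.34), JFD00822 (119.26, 1.31), BRD6688 (106.72, 1.15) and 5-azacytidine (104.25, 1.11), from 47.92 in DMSO. In junction reads the DMSO libraries had 112.6, 114.4 and 100.3 RPM, and 0 compounds lay below that range and 20 above. Myc, too, had 20 compounds above its DMSO range, with 6 below, and the share over all genes was not computed. The calls with JFD00822 and 5-azacytidine did not reach 2-fold in junction reads (0.90 and 0.67).

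Gata3 (chr2:9857078-9890034, minus strand) was called with CI-994 (28.58 RPKM, 1.89), Vorinostat (21.27, 1.47), T5985871 (18.37, 1.27), GNF-5837 (17.71, 1.22), BRD6688 (15.91, 1.07) and AW00693 (15.47, 1.03), from 7.34 in DMSO. Its lowest value was 4.42 RPKM with A-443654 (-0.67). Gata2 and Gata3 were called together with BRD6688, GNF-5837 and T5985871. Relative to the median of all genes, each was higher with 9 compounds, with no share over all genes computed on that scale.

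The partners of GATA and LIM factors build complexes in which LMO proteins bridge LDB1 to DNA-binding factors. Of 16 genes, 9 exceeded 5 RPKM in DMSO and 4 of these were called with no compound. Lmo2 (21.33 RPKM in DMSO) was lower with the same 4 kinase inhibitors as Mycn, most with Crenolanib (3.53, -2.44), and higher with A-443654 (58.42, 1.43). Lmo1, a neuroblastoma susceptibility gene, had 33.51 RPKM in DMSO and was higher with T5985871 (82.23, 1.28), AW00693 and T5635931 and lower with 7678804 (14.74, -1.16). Tal1 (5.43 RPKM) was lower with 2 compounds.

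The 4 HDAC inhibitors, each with 2 libraries, are the compounds for which the spread could be used. In limma on log2 junction reads of the 11 libraries, 31 of 32 pairs of factor and inhibitor passed an adjusted p of 0.05 over 11715 genes. Over all genes the share called was 76% with Vorinostat, 77.1% with CI-994, 61.2% with BRD4884 and 64% with BRD6688, so passing the test is common, and the sizes are read instead. The median log2 difference of the 8 factors was 1.03, 1.63, 0.89 and 1.24, against 0.15, 0.14, 0.22 and 0.19 over all genes. How often inhibitor libraries lay outside the DMSO range over all genes was not computed. Such separation, where given below, describes the libraries only.

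Gata3 had 19.65, 18.13 and 18.24 junction RPM in DMSO A, B and C, and 63.27 and 74.88 in Vorinostat A and B, 91.33 and 81.86 with CI-994, 40.39 and 40.45 with BRD4884, and 44 and 48.46 with BRD6688. No inhibitor library overlapped with DMSO. The log2 difference with CI-994 was 2.21 (SE 0.10, adjusted p = 2.66e-10).

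Isl1 had 23.51, 22.41 and 22.93 junction RPM in DMSO, 78.86 and 79.16 with Vorinostat, 71.75 and 73.04 with CI-994, 55.28 and 59.82 with BRD4884, and 54.53 and 49.43 with BRD6688. No inhibitor library overlapped with DMSO. Isl1 rose with all 4 inhibitors, most with Vorinostat (1.78, SE 0.08, adjusted p = 3.13e-10).

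Phox2a had 25.39, 16 and 17.54 junction RPM in DMSO, 112.6 and 116.2 with CI-994, 74.3 and 84.72 with BRD6688, 28.42 and 47.76 with BRD4884, and 35.14 and 77.85 in Vorinostat A and B. The sum of its 2 junctions rose most with CI-994 (2.57, SE 0.29, adjusted p = 2.11e-06). The junction of intron 2 alone had 437 reads in the 3 DMSO libraries together and 472 in the 2 CI-994 libraries. On both junctions there were 1031, 569 and 351 reads in DMSO A, B and C, and 2871 and 3151 with CI-994. Most of the rise in the sum thus lay on the other junction, and by RPKM the log2 ratio was 1.20. Vorinostat A lay nearer to DMSO than to Vorinostat B, and the difference of 1.44 was 2.02 without Vorinostat A and 0.87 without Vorinostat B. The rise with BRD4884 (0.94, SE 0.29, adjusted p = 0.0119) was 0.56 without BRD4884 B (adjusted p = 0.185).

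Mycn had 8.47, 8.126 and 5.646 junction RPM in DMSO, 27.38 and 24.3 with CI-994, 18.47 and 19.57 with BRD6688, 13.05 and 16.91 with BRD4884, and 12.03 and 12.34 with Vorinostat. All 8 inhibitor libraries lay above the DMSO range. The log2 difference with CI-994 was 1.82 (SE 0.18, adjusted p = 5.64e-07), whereas the RPKM ratio was 0.92 and was not called. The median of all genes was -0.44 in that RPKM ratio and 0.14 in the junction reads, so the values of the 2 measures stand on different scales.

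Myc differed in direction between the inhibitors. It had 67.51, 69.78 and 70.5 junction RPM in DMSO, 27.4 and 35.74 with Vorinostat, 51.08 and 51.93 with BRD4884, 67.3 and 68.38 with BRD6688, and 90.66 and 83.66 with CI-994. It fell by 1.15 on the log2 scale with Vorinostat (SE 0.10, adjusted p = 1.97e-07) and by 0.43 with BRD4884 (SE 0.10, adjusted p = 0.00238), and rose by 0.33 with CI-994 (SE 0.10, adjusted p = 0.00872). With BRD6688 the difference was -0.03 (SE 0.10, adjusted p = 0.81). Without CI-994 A the rise was 0.27, with an adjusted p of 0.0873.

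Hand2 and Gata2 rose with all 4 inhibitors in junction reads, by 0.56 to 1.22 and by 0.78 to 1.21. Each was highest with CI-994, and none of their inhibitor libraries overlapped with DMSO. Rest rose by 1.60 with CI-994 (SE 0.26, adjusted p = 7.3e-05), by 1.36 with BRD6688, by 1.13 with Vorinostat and by 0.83 with BRD4884 (SE 0.26, adjusted p = 0.0131). Its RPKM ratios with these inhibitors were 0.16 to 0.34, and none was called. The rise with BRD4884 missed the threshold without BRD4884 B (0.57, adjusted p = 0.16) and with size factors taken as median ratios (0.61, adjusted p = 0.0534). Without Vorinostat A the Vorinostat difference was 1.44 for Rest, 2.0 for Gata3, 0.97 for Gata2 and 0.76 for Mycn, and without Vorinostat B it was 0.83, 1.76, 0.65 and 0.72, all with an adjusted p under 0.05 in limma.

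**Figure D4:**
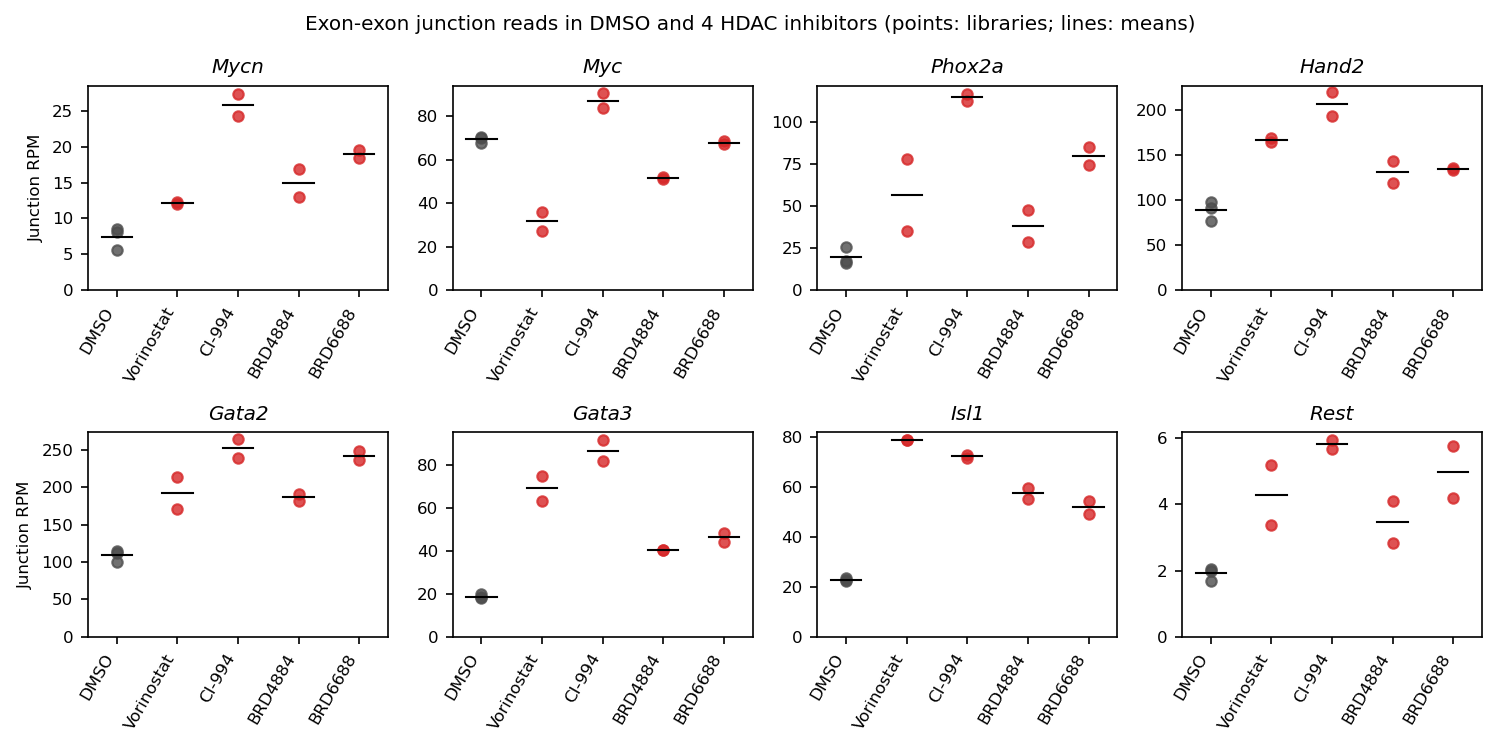
Each panel gives 1 of the 8 factors, with junction RPM on a vertical axis that starts at 0. Points are libraries, 3 for DMSO (grey) and 2 for each HDAC inhibitor (red), and lines are means. All panels but Myc show every inhibitor library above DMSO, and in Myc the Vorinostat libraries are lowest at 27.4 and 35.74.

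The gene lists gave the following in junction reads with Vorinostat, CI-994, BRD4884 and BRD6688 in turn. Over all genes 43.6%, 43.6%, 43.1% and 41% rose and 32.4%, 33.4%, 18.2% and 23% fell. Of 13 MYC targets, 12, 12, 11 and 12 fell. Of 11 catecholamine genes, 9, 11, 11 and 11 rose, and Dbh fell with Vorinostat (-1.15, SE 0.10, adjusted p = 2.87e-07). Of 9 noradrenergic factors, 5, 5, 4 and 5 rose and 4, 2, 2 and 1 fell. Of 9 genes of the MYC network, 5, 5, 3 and 5 rose and 3, 2, 0 and 1 fell. Of 14 GATA and LIM partners, 4, 5, 6 and 8 rose, and 7, 2, 1 and 1 fell. The last 3 lists had several counts near those of all genes, and nothing is read from them.

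Rest (chr5:77265491-77286432, plus strand) was between 2.63 RPKM with GNF-5837 and 6.57 with T5758020, and was called with no compound. It had 2.044, 1.996 and 1.699 junction RPM in DMSO A, B and C (83, 71 and 34 reads), so each value rests on few reads. With GNF-5837 there were 23 reads, or 1.16 RPM (95% Poisson interval 0.7354 to 1.741). That was the 1 compound below the DMSO range, while 23 lay above, with no share over all genes computed for such counts.

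REST acts with corepressors such as the RCOR proteins, SIN3A, histone deacetylases and the methyltransferase EHMT2. All 12 in the list exceeded 5 RPKM in DMSO, and 7 were called with no compound. Rcor2 was the most changed, with 58.95 RPKM in DMSO and 9.21 with Vorinostat (-2.61). Its junction reads fell with Vorinostat by 2.34 on the log2 scale (SE 0.07, adjusted p = 6.43e-12). In junction reads 3, 4, 4 and 5 of the 12 rose and 6, 3, 4 and 3 fell with Vorinostat, CI-994, BRD4884 and BRD6688. Together 9, 7, 8 and 8 of 12 were called, against 76%, 77.1%, 61.2% and 64% of all genes, so these counts are not a result about the corepressors.

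Of 16 neuronal genes taken as REST targets, 6 of 14 over 5 RPKM were higher and 1 lower with Vorinostat and likewise with CI-994, against 10.4% and 10.2% of all genes higher and 22.5% and 26.1% lower. Genes under 5 RPKM in DMSO entered these counts only where a compound raised them over it, as in the shares over all genes. In junction reads 11, 13, 11 and 13 of 15 rose and 2, 1, 0 and 1 fell with the HDAC inhibitors in the same order, where 41% to 43.6% of all genes rose. Syp, a synaptic vesicle protein, stood at 291.09 RPKM with CI-994 (2.32), from 57.76 in DMSO. Slc12a5, the neuronal chloride exporter, rose in junction reads by 2.53 with CI-994 (SE 0.14, adjusted p = 1.9e-09). Vgf, a secreted neuropeptide precursor, was higher with Vorinostat (483.24 RPKM, 2.16) from 107.94 in DMSO, and lower with the 4 kinase inhibitors, most with GNF-5837 (3.7, -4.69).

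The last junction of Rest had few reads and is given as a description, since its intron passed the filters in 0 libraries. Reads that join the 84-nt exon directly to the last exon, the sequence shown above, numbered 0 in 26 of 34 libraries. None was found in the 3 DMSO libraries, where 135 reads joined the exon before to the same 84-nt exon, which allows a share of up to 2.22% (3 reads, counting error only). The reads found were 14 with T5985871, 5 with AW00693, 4 each with T5635931 and T5758020, 3 each with MK-1775 and in Vorinostat B, and 1 each with T5963258 and JFD00822. So 7 of 10 microexon inhibitors had them and 1 of 17 activators.

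In T5985871 those 14 reads were 14.9% of the reads on both junctions (exact binomial 95% interval 8.39% to 23.7%). The 10 inhibitor libraries together had 32 reads on the last junction and 574 on the one before, and the 21 activator libraries 3 and 1289. On the previous junction the activator libraries had 18 to 109 reads each and the inhibitor libraries 35 to 80. Srrm4, the splicing factor that promotes neuronal microexons, was called by RPKM with T5985871 alone (3.34 RPKM, -1.51, from 10.42 in DMSO). Reads through a microexon between these exons were not analysed here, and with 1 library a compound there is no test.

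**Figure D5:**
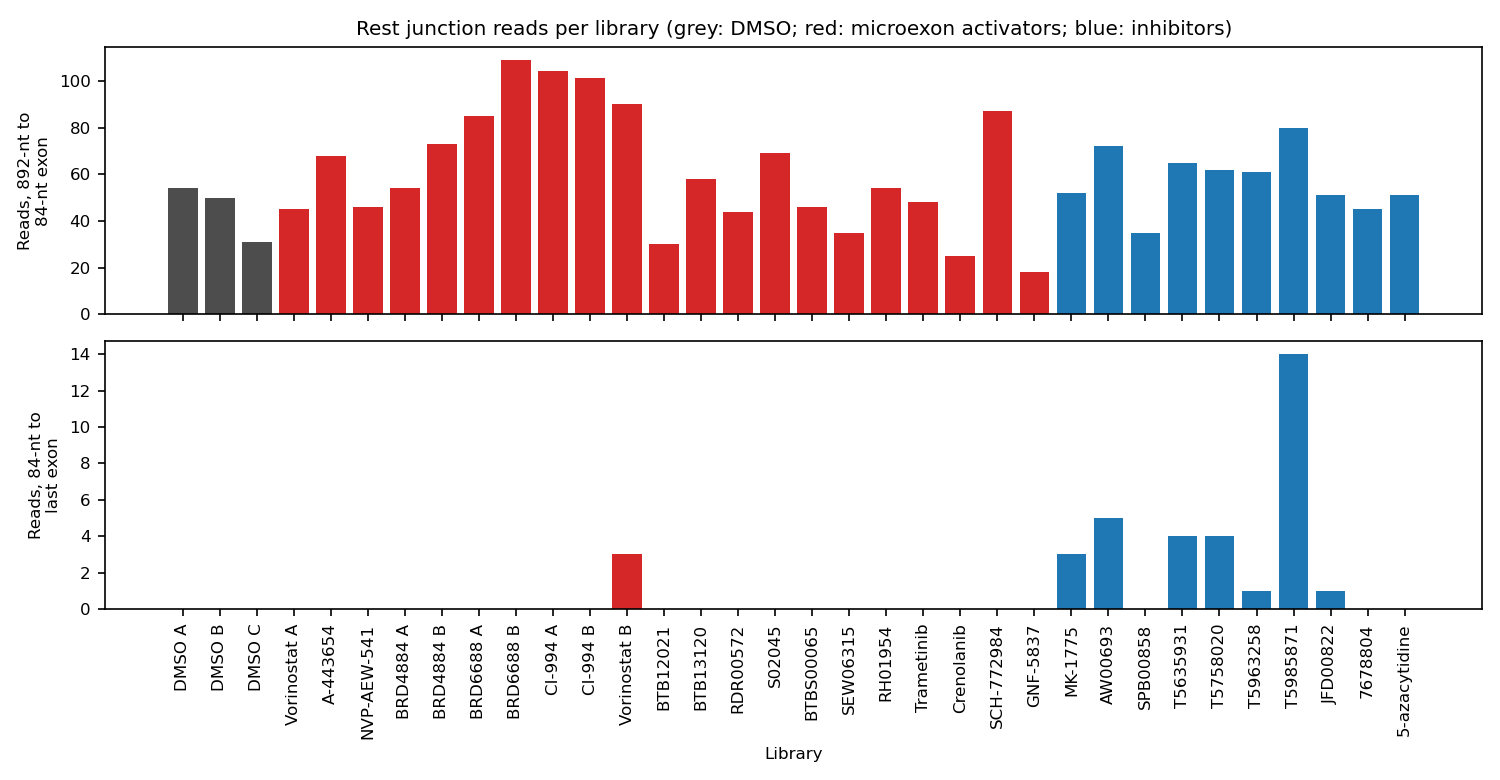
Bars give the number of Rest junction reads in each of 34 libraries, from the 892-nt to the 84-nt exon (top) and from the 84-nt to the last exon (bottom), on axes that start at 0. Colours are DMSO (grey), microexon activators (red) and inhibitors (blue). The top bars reach from 31 to 54 in DMSO, 18 to 109 with activators and 35 to 80 with inhibitors, and the bottom bars are 0 in 26 libraries and highest at 14 with T5985871.

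Inclusion of the 84-nt exon of Rest was 100% in all 28 libraries that passed coverage and balance, by the first of the deposited coverage scores. By the third score, which the study's methods name, the 84-nt exon passed in 0 libraries and the 892-nt exon in 2. The 892-nt exon was at 97.44% and 92% in the 2 DMSO libraries that passed and at 100% in the 8 HDAC inhibitor libraries, a difference of 5.28 points (exact permutation test, two-sided, p = 0.0222, the smallest possible, adjusted p = 0.414). DMSO C, which did not pass, was at 100% on 30 reads. Of the 39 events of the 8 factors tested in this way, 0 passed an adjusted p of 0.05 and 4 had an unadjusted p under it. Among these 4 was a 190-nt exon of Isl1, 1.72 points lower on average with HDAC inhibitors (99.85% and 98.13%, exact permutation p = 0.00606, adjusted p = 0.236). The other exons of the 8 factors were near full inclusion throughout, and apart from Phox2a intron 2 no tested intron was retained above 12% in a library that passed.

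Across the 28 conditions, which share 1 cell line and the merged DMSO value, the level of each factor was set beside those of 9501 genes with a mean over 5 RPKM, by Pearson's r of log2 RPKM. Mycn was most like Ngfr (r = 0.919), F2r (0.918) and Dusp4 (0.910), and Rest most like Sgpp1 (0.897), Pvr (0.869) and Dusp4 (0.862). Ngfr, the low-affinity neurotrophin receptor, had 46.04 RPKM in DMSO and 3.29 at its lowest. Among the 8 factors themselves the highest values were 0.78 for Mycn and Rest, 0.74 for Gata3 and Isl1 and 0.72 for Hand2 and Isl1.

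Phox2a was most like Chgb (0.915), a granin of secretory granules, and then Itpk1 (0.845) and Bpgm (0.843). Isl1 was most like Tmtc1 (0.904), Atp13a2 (0.854) and Fam117b (0.850), and Gata3 like Hspa2 (0.859), Tob1 (0.846) and Cited2 (0.819). Myc was most like Prdm4 (0.859), Hmgxb3 (0.833) and Uck2 (0.832), and Hand2 like Sgcb (0.873) and Itm2b (0.870). Gata2 had the weakest partners, Atp5b (0.728), Gm24245 (0.659) and Hist1h2ap (0.653).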

How the data were processed

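PolyA+ RNA-seq reads of 34 N2A libraries were processed by the authors. The RPKM values that the authors deposited rest on Salmon (0.10.2 in the submitters' processing notes, which also name edgeR and mm9) with GENCODE vM21 transcripts, and hold 1 merged value per condition. The deposited percent spliced in values, with junction reads and quality scores per library, came from vast-tools, run by the authors, with mm9 coordinates, and are not converted here. The authors' own fold changes, p-values and calls against DMSO were not used. Every value column used had a condition (0 without).

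Log2 ratios of RPKM + 0.5 were called past 2-fold with over 5 RPKM in either condition. Exon-exon junction reads were summed over the introns of each gene, with each library's total of these reads as its depth. Genes with a mean of at least 10 reads were fitted on log2 junction RPM, offset 0.5 reads, with limma 3.58.1 (R 4.3.3, eBayes with trend) in 11 libraries, with Benjamini-Hochberg adjustment. Splicing events followed the study's coverage classes and balance filters (introns needed 15 reads or more and a p for balance over 0.05). For exons the first coverage score was used here, where the study's methods name the third. Events were compared by exact permutation tests written in Python 3.11.15 with numpy 2.4.6. Poisson and exact binomial intervals came from scipy 1.17.1. Intervals and limits of a count of 0 cover counting error only, since reads without molecular identifiers are not independent molecules. The limma script was tested on simulated reads with known changes.

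Groups came from the sample labels. The 8 genes, the gene lists and the tests were chosen with earlier results of these data known. Named are all 8 genes, the 3 genes most like each, and up to 4 genes a list, those called with the most compounds. Some items that this rule names are not reported here. Promoters came from RefSeq (GRCm38.p6), where 6 of the 8 genes had an entry, and Myc and Rest had none. Letters A and B did not pair the libraries, since correlations of their deviations between groups lay between -0.07 and 0.04. The alternatives covered pseudocounts of 0.1 and 1, other minimums, centring, other size factors, a replicate block and leaving out each library.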

Additional observations from a re-analysis of the deposited data

How the results depend on the processing

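Of 755 values recomputed for 74 results, 741 were counted as unchanged. For a log2 value this means the same direction and side of the threshold. A count of calls could shift somewhat, as from 23 to 25, and still be counted so. Calls by RPKM numbered 23, but 45 of 216 pairs were past 2-fold when junction reads took the place of RPKM, an alternative chosen after seeing the data. Relative to the median of all genes, 28 pairs were higher instead of 17, Myc was called with 0 compounds (-0.75 with Vorinostat), Hand2 with 2 and Isl1 with 4. No share over all genes was computed for the junction-read or the centred counts. With a pseudocount of 1, Phox2a was called with 1 compound, and Gata3 with AW00693 (0.98) was not called. Pseudocounts of 0.1 and 1 gave 25 and 21 calls.

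In junction reads with the HDAC inhibitors, leaving out 1 library gave 29 to 31 calls, and the replicate block gave 31, as without it. A group left with 1 library is assumed to vary like the others. The values for Phox2a and Rest without BRD4884 B, for Myc without CI-994 A and for Rest with median-ratio size factors are those in the report, and these size factors gave 30 calls. Inclusion of the 84-nt exon of Rest differed by 0.00 points under each alternative that gave a value. Leaving out DMSO A or B leaves 1 DMSO library for it and no value. Retention of Phox2a intron 2 differed by -0.34 points without DMSO A, and by up to 5.77 points with another library left out. The cause of these changes was not tested. The third coverage score, which the study's methods name, was added after seeing the data. It left too few libraries for a value in Rest. Depth limits Rest and low Mycn most, with as few as 23 and 8 junction reads in a library.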

Other observations

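Apart from the acceptor site of Myc, a 3-nt acceptor choice was also measured for Gata2, where the form with the 3 bases made up 97.42% to 99.68% of reads in the 34 libraries. A 23-nt alternative acceptor of Gata3 stayed between 0% and 1.79%, and a 279-nt one of Mycn was at 0% in all 31 libraries that passed. The intron of Isl1 of 1267 nt, retained at a median of 0.72%, reached 10.81% with SEW06315, and that of 2796 nt reached 9.64% with 7678804.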
